A study of Mus musculus with 6 samples.

Results

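The genes described here are 9 genes of planar cell polarity: the atypical cadherin genes Celsr1, Celsr2 and Celsr3, the transmembrane protein genes Vangl1 and Vangl2, the cytoplasmic adaptor genes Prickle1 and Prickle2, and the Frizzled receptor genes Fzd3 and Fzd6. All 9 were found by name among the 53670 genes of the deposited count table. They were chosen by their role in this pathway with results of the knockout comparison already known, among them that Celsr3 was lower in knockout islets, so their differences between genotypes are given as a description, with no test of their own. The RNA came from isolated pancreatic islets of 6-week-old mice, 3 libraries from Paupar +/+ mice (WT) and 3 from Paupar -/- mice (KO). Paupar is a long noncoding RNA gene beside Pax6. The labels do not say how the allele was made, whether Paupar was lost in every cell, or whether replicates came from separate animals, so the spread between libraries may in part be technical.

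Planar cell polarity is the alignment of cells within the plane of a tissue. Celsr cadherins bind each other across neighbouring cell borders, with a Frizzled receptor and Dishevelled on one side of the border and Vangl and Prickle proteins on the other. In the pancreas Celsr2 and Celsr3 are known to act in the progenitors of endocrine cells, and the pathway's effector Cfap126 (Flattop) is known to mark mature beta cells. Celsr3 and Fzd3 are best known from neurons, where they guide axons.

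Libraries held 25733194 to 27285009 counts. The count of Paupar itself was 177, 252 and 111 in the WT libraries, against 4, 0 and 4 in the KO libraries. The endocrine genes that define islets (Ins1, Ins2, Iapp, Gcg, Sst, Ppy, Chga and Chgb) summed to 270782 to 287907 CPM (read counts relative to library size, scaled by TMM factors) in WT and 326631 to 331980 in KO, with 3 of 8 log2 fold changes negative (Gcg, Sst and Ppy) and 0 called. Most of the sum was Ins2, at means of 146818 CPM in WT and 178878 in KO. The KO libraries were of both sexes by their sex-linked genes, and the WT libraries of 1. Xist, which silences an X chromosome in females, had 1120 and 862 counts in KO replicates 2 and 3 but 0 in KO replicate 1, and 1 to 6 in WT. The Y-linked Ddx3y had 1693 counts in KO replicate 1, 2 and 0 in the others, and 1316 to 1830 in WT. All 3 WT libraries and KO replicate 1 thus had the male pattern and KO replicates 2 and 3 the female pattern. Without KO replicate 1, genotype and sex cannot be told apart, and with it they are told apart by that library alone. The sex-matched comparison is KO replicate 1 against the 3 WT libraries, and its values and those without KO replicate 1 are given for each of the 9 genes.

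Celsr3 was the member whose level differed most between the genotypes, and its start region is the sequence shown here. RefSeq promoter windows (GRCm38.p6, 250 bases before to 50 after a start site) matched 5 of the 9 genes, Celsr2, Celsr3, Vangl2, Prickle1 and Prickle2, with 9 windows. Both windows below are 5′ to 3′ on the gene's strand: Celsr3 at chr9:108825795-108826094 (plus strand) and Celsr2 at chr3:108415530-108415829 (minus strand). In mm9, the build of the counts, the same letters lie at chr9:108728126-108728425 and chr3:108218448-108218747. The Celsr3 window ends 226 bases before the Celsr3 start in the GENCODE vM1 annotation, which gives the gene positions below. Its start site is therefore that of RefSeq. Capitals mark a stretch in the Celsr3 window that begins at position -127 from the start site and holds the letters TTCAGCACC, then any 2 bases, then GGNCAG, searched on both strands.
Celsr3: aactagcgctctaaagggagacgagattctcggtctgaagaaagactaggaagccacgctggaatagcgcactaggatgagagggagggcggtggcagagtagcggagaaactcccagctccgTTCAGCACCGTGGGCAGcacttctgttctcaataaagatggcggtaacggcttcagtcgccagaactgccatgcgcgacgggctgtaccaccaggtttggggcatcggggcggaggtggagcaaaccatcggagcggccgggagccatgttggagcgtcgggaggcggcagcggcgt
Celsr2: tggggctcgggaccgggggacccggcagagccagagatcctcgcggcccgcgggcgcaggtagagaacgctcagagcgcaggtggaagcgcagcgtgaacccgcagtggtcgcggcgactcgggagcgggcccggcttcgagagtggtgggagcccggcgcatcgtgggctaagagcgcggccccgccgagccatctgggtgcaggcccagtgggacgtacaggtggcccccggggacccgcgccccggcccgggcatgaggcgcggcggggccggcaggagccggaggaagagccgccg

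These letters follow the RE1 element, the site of the repressor REST, known for keeping neuronal genes silent outside the nervous system. The search was chosen after the Celsr3 window had been read. Of 32851 promoter windows of this length, 7 held both arms (0.0213%) and 122 held TTCAGCACC alone (0.371%). The 7 were those of Celsr3, the neuronal synapsin gene Syn1, the homeobox gene Lhx3, Lhfpl5, Osbp2 and the predicted genes Gm31317 and Gm32659. With the textbook right arm GGACAG in place of GGNCAG, 4 windows matched and Celsr3 was not one of them. Neither arm combination nor TTCAGCACC alone was present in the other 8 windows, which says only that these letters are not there. Rest, which encodes REST, averaged 4.56 ± 1.86 CPM over the WT libraries and 3.51 ± 0.942 over the KO libraries (SD, n = 3 each, log2 fold change -0.38, SE 0.37, edgeR adjusted p = 0.654 over all genes). Without KO replicate 1 the difference was -0.60, and against KO replicate 1 alone it was -0.01. The windows also differed in base composition, with 60.7% G and C for Celsr3 and 76.3% for Celsr2, against a median of 52.7% over all windows.

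Measured per length of exon, so that genes can be compared, Fzd3 was the most abundant of the 9 genes over the 6 libraries and Vangl2 the least. Fzd3, a Frizzled receptor of the polarity core, stood at 18.2 ± 1.83 CPM per kilobase of exon (SD, n = 6 libraries). Prickle1, an adaptor on the Vangl side, followed at 5.48 ± 0.533, and Celsr3 at 4.03 ± 1.34. Below them came Vangl1 at 2.72 ± 0.283, Fzd6 at 2.45 ± 1.62 and Celsr2 at 1.42 ± 0.0843. The lowest were Celsr1 at 0.852 ± 0.304, Prickle2 at 0.747 ± 0.136 and Vangl2 at 0.635 ± 0.113. These means pool both genotypes. Celsr3 was at 5.22 ± 0.452 CPM per kilobase in WT and at 2.84 ± 0.201 in KO, where it lay beside Vangl1 at 2.74 ± 0.115. At the low end, Vangl2 and Prickle2 were at 0.718 ± 0.0914 and 0.714 ± 0.182 in WT, so that over WT alone Prickle2 was the lowest. In each pair of paralogs other than the cadherins 1 gene dominated on this scale: Vangl1 over Vangl2 by 2.80 to 5.25 times, Prickle1 over Prickle2 by 6.02 to 9.65 times and Fzd3 over Fzd6 by 4.50 to 56.9 times across libraries.

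Neighbours in this order were compared within libraries by a two-sided exact sign-flip permutation test, adjusted by Benjamini-Hochberg over 8 pairs, which with 6 libraries cannot go below p = 0.03125. Fzd3 exceeded Prickle1 in 6 of 6 libraries, by 1.73 ± 0.18 on the log2 scale per length (SD), Prickle1 exceeded Celsr3 in 6 of 6 (0.51 ± 0.41) and Celsr2 exceeded Celsr1 in 6 of 6 (0.82 ± 0.56). Each of these pairs reached that smallest p (0.03125), which became 0.0833 after adjustment, so none passed. With this floor so few pairs cannot pass after adjustment over 8, even with 6 of 6 libraries in agreement. The result therefore does not speak against the order, which was itself taken from the means of these libraries. The other 5 pairs had exact adjusted permutation p-values from 0.125 to 0.719. All 5 changed places between libraries: Celsr3 exceeded Vangl1 in 5 of 6, Fzd6 exceeded Celsr2 in 4 of 6, Celsr1 exceeded Prickle2 in 3 of 6 and Prickle2 exceeded Vangl2 in 5 of 6. Vangl1, ahead of Fzd6 by its mean, exceeded it in only 2 of 6, the replicates 1.

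**Figure D1:**
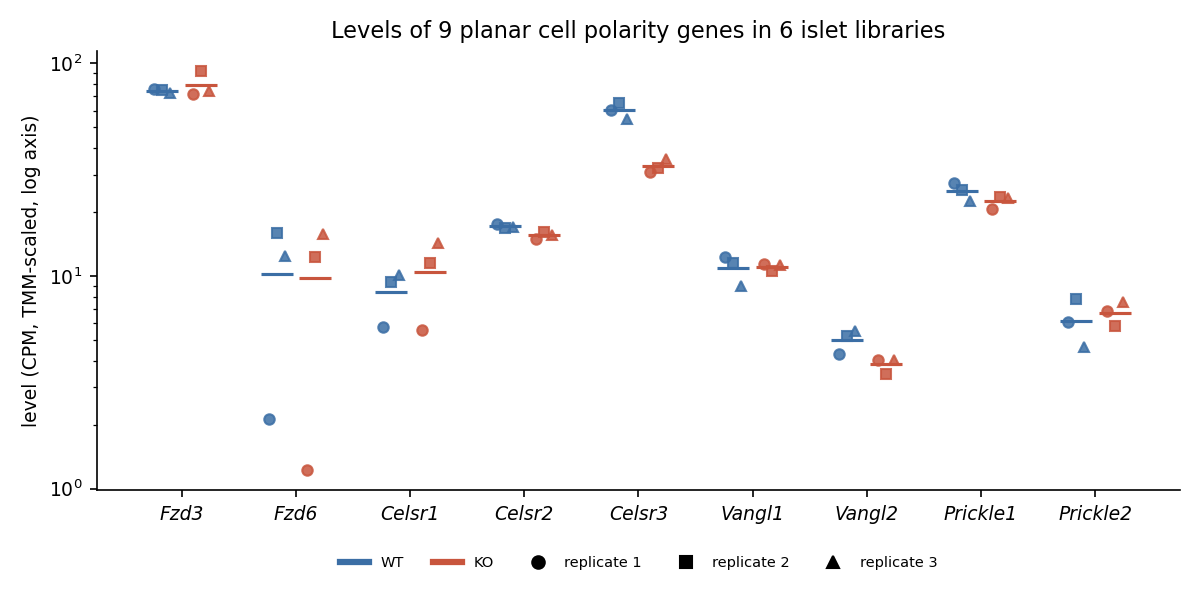
Level of each gene in each library in CPM scaled by TMM factors, on a log axis. Blue points are WT and red points KO, the symbol gives the replicate, and bars are group means. The KO points of Celsr3 all lie below its WT points, while Fzd6 and Celsr1 are lowest in replicate 1 of both genotypes.

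Celsr3, the cadherin of the family best known from axon tracts, was at 60.3, 65.4 and 55.0 CPM in WT replicates 1 to 3, against 30.9, 32.1 and 35.4 CPM in the KO libraries in the same order. The groups did not overlap, and the highest KO library lay well below the lowest WT library. The means were 60.2 ± 5.22 and 32.8 ± 2.32 CPM (SD, n = 3), a log2 fold change of KO over WT of -0.88 (SE 0.09), which leaves 54.5% of the WT level. The gene lies on chromosome 9, 108728651 to 108755294 on the plus strand in mm9, with 11541 bp of exon. In these bulk samples, fewer cells that express the gene and less RNA per cell cannot be told apart.

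Of the 9 genes, Celsr3 was the 1 called lower at an adjusted p below 0.05 in edgeR's fit over all 15915 tested genes, where 0.17% were called lower, and 0 were called higher, where 0% were. The contrast was known when the genes were chosen, so nothing is read from this count. In 3 of the 9 genes (Celsr2, Celsr3 and Vangl2) every KO library lay below every WT library, against 12.1% of all tested genes, and in 0 every KO library lay above, against 11.3%. The median log2 fold change of the 9 was -0.06, against 0.00226 for all tested genes. All 9 passed the filter on low counts.

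The size of the Celsr3 difference kept within -0.81 and -0.93 when any 1 library was left out, but the call was kept only without WT replicate 3. It was lost without WT replicate 1, WT replicate 2, KO replicate 1 (-0.84), KO replicate 2 or KO replicate 3. In the sex-matched comparison, against KO replicate 1 alone, the difference was -0.96 and was not called. Correcting each library for trends with exon length and GC content (smooth offsets) brought the log2 fold change from -0.88 to -0.57 (SE 0.08). It was then not called.

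The Celsr genes have long transcripts. For the 676 tested genes with at least 10000 bp of exon the median log2 fold change was -0.16, and Celsr3 was the 24th lowest among them. Calls lay largely in long genes. Of the 14805 tested genes with annotation 26 were called, and 8 of these, Celsr3 included, had at least 10000 bp of exon. The 2960 longest genes held 20 of the 26. Celsr1 and Celsr2 have almost the same exonic length (11075 and 11513 bp) and GC content (58.7% and 58.6%, against 57.8% for Celsr3). Their log2 fold changes were 0.31 (SE 0.36) and -0.14 (SE 0.08). With the length and GC offsets these were 0.61 (SE 0.36) and 0.17 (SE 0.09), so all 3 Celsr values moved upward. The part of length and GC content in the Celsr3 difference was not tested.

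Celsr2 was at 17.6, 16.8 and 16.98 CPM in WT and at 14.997, 16.1 and 15.5 CPM in KO. The WT and KO libraries did not overlap, yet lay close together, with means of 17.1 ± 0.395 and 15.5 ± 0.541 CPM, and the gene was not called. Without KO replicate 1 its log2 fold change was -0.12 instead of -0.14, and against KO replicate 1 alone it was -0.19. With the length and GC offsets the sign turned, to 0.17. Celsr2 lies on chromosome 3, 108193769 to 108218470, on the minus strand.

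The Celsr3 transcript therefore made up a smaller part of the Celsr family in KO. Per length of exon, Celsr3 took 71.9%, 71.02% and 66.6% of the summed Celsr level in WT replicates 1 to 3, against 59.8%, 53.3% and 53.8% in the KO libraries. Celsr2 took 20.0 ± 1.44% in WT and 26.5 ± 2.70% in KO, and Celsr1 10.2 ± 2.84% and 17.9 ± 5.96%. The ratio of Celsr3 to Celsr2 was 3.42, 3.87 and 3.23 in WT and 2.06, 1.99 and 2.27 in KO. Since Celsr2 stayed between 1.30 and 1.53 CPM per kilobase, these shares and ratios largely restate the known Celsr3 difference and are no separate evidence. The summed level itself was 7.47 ± 0.446 CPM per kilobase in WT and 5.14 ± 0.614 in KO.

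**Figure D2:**
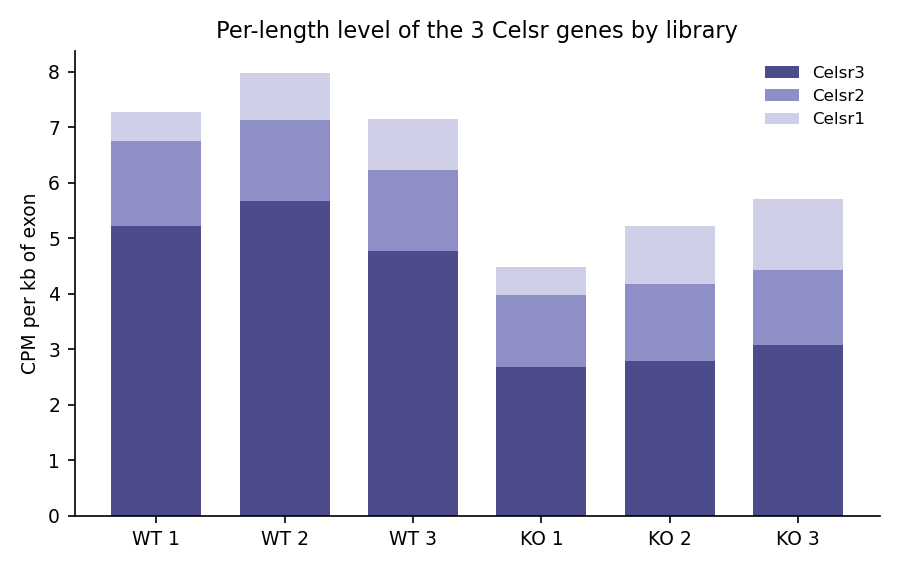
Stacked bars give the level of Celsr3 (dark), Celsr2 (middle) and Celsr1 (light) per kilobase of exon in each library, in TMM-scaled CPM per kb. The Celsr3 segment is 4.76 to 5.67 high in the WT libraries and 2.68 to 3.07 in the KO libraries, while the Celsr2 segment stays between 1.30 and 1.53.

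The cadherin transcripts share little sequence at the length of a short read. Of 11517 distinct 25-base words in the annotated Celsr3 transcripts, 9 also occur in Celsr1 and 3 in Celsr2, and no other pair of the 9 genes shares any. Exons of Celsr3 overlap those of 1 other annotated gene, a microRNA of 65 bases on the same strand, and those of Vangl1 share 8 bases with the noncoding gene Gm16160 on the opposite strand. The nearest gene downstream of Celsr3, Slc26a6, an anion transporter gene that starts 1074 bases past its end on the same strand, also had every KO library below every WT library, with means of 4.37 ± 1.05 and 2.53 ± 0.394 CPM (log2 fold change -0.79, SE 0.24, edgeR adjusted p = 0.207). The upstream neighbour Nckipsd, 7868 bases away, was at 18.4 ± 0.841 and 16.9 ± 1.27 CPM (-0.12, SE 0.09, edgeR adjusted p = 0.581). Without KO replicate 1 Slc26a6 was at -0.89 and Nckipsd at -0.06, and against KO replicate 1 alone they were at -0.59 and -0.24. Both neighbours were chosen by position.

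Marker genes of other cell types in the preparations moved with genotype in part. Summed markers of Schwann cells and neurons, cells in which Celsr3 is also known, were 16.6 to 28.1 CPM in WT and 13.4 to 17.9 in KO, with negative log2 fold changes for 5 of 6 tested markers, a median of -0.87, 0 called and none at 0 in all libraries. Acinar markers summed to 21589 to 68936 CPM in WT and 16301 to 42638 in KO, with 8 of 8 negative and 0 called. Endothelial markers summed to 352 to 435 CPM in WT and 496 to 523 in KO, with 6 of 7 positive and 0 called. Duct and epithelial markers (543 to 569.5 CPM in WT, 551 to 611 in KO) and stellate cell and fibroblast markers (79.7 to 186 and 99.9 to 187) overlapped. The part of these cells in the Celsr3 result was not tested.

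The genes whose profile over the 6 libraries was most like that of Celsr3 were not polarity genes. Likeness was the root mean square difference of log2 CPM centred on each gene's mean, over 12913 other genes with a mean of at least 1 CPM, predicted genes left out. The 5 nearest were Sugp2 (0.0683) and Sfswap (0.0712), linked to splicing, the axonemal dynein gene Dnah2 (0.0713), Msantd2 (0.0856) and the centrosomal Cep95 (0.0875). All 5 were also lower in KO, with log2 fold changes from -1.01 (Sugp2) to -0.76 (Cep95). Sugp2 and Sfswap were called (edgeR adjusted p = 0.0446 for both). The measure takes in the known genotype difference of Celsr3, so likeness is no evidence of shared regulation. These genes also share the 6 libraries and their depth with Celsr3. Among the polarity genes, the nearest was the Dishevelled gene Dvl1 at rank 19, then Prickle3 at rank 290.

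Vangl2, a transmembrane protein of the polarity core whose loss in mice leaves the neural tube open, was at 4.30, 5.24 and 5.52 CPM in WT and 4.03, 3.48 and 4.04 CPM in KO. The groups were separate by a small margin, since WT replicate 1 lay just above the KO libraries. The log2 fold change was -0.38 (SE 0.17), within -0.30 and -0.48 when any 1 library was left out (-0.42 without KO replicate 1) and -0.31 against KO replicate 1 alone, and the gene was not called. Vangl2 lies on chromosome 1, 173931091 to 173958575 (this and the positions that follow are in mm9).

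Its paralog Vangl1 showed no such separation, at 12.3, 11.5 and 8.93 CPM in WT and 11.4, 10.5 and 11.2 CPM in KO (0.02, SE 0.14). Its log2 fold change was 0.00128 without KO replicate 1 and 0.07 against that library alone. Vangl1 lies on chromosome 3, 101960624 to 102008616.

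Prickle1, the more abundant of the Vangl-side adaptors, was at 27.5, 25.2 and 22.5 CPM in WT and 20.7, 23.6 and 23.3 CPM in KO. The ranges overlapped (log2 fold change -0.15, SE 0.10), and the value was -0.09 without KO replicate 1 and -0.27 against it alone. Prickle2, its paralog, was at 6.10, 7.77 and 4.63 CPM in WT and 6.85, 5.80 and 7.54 CPM in KO, with the lowest and the highest library both in WT (0.13, SE 0.22). The corresponding values were 0.11 and 0.15. Prickle1 lies on chromosome 15, 93329545 to 93426322, and Prickle2 on chromosome 6, 92320886 to 92656139.

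Fzd3, the receptor that pairs with Celsr3 in axon guidance, was at 75.8, 74.6 and 72.5 CPM in WT and 71.7, 92.3 and 74.1 CPM in KO. KO replicate 2 was the highest and the other KO libraries lay beside WT, giving a log2 fold change of 0.10 (SE 0.10). It was -0.03 without KO replicate 2, 0.16 without KO replicate 1 and -0.05 against KO replicate 1 alone, so its sign rested on single libraries. Fzd3 lies on chromosome 14, 65819863 to 65881300.

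**Figure D3:**
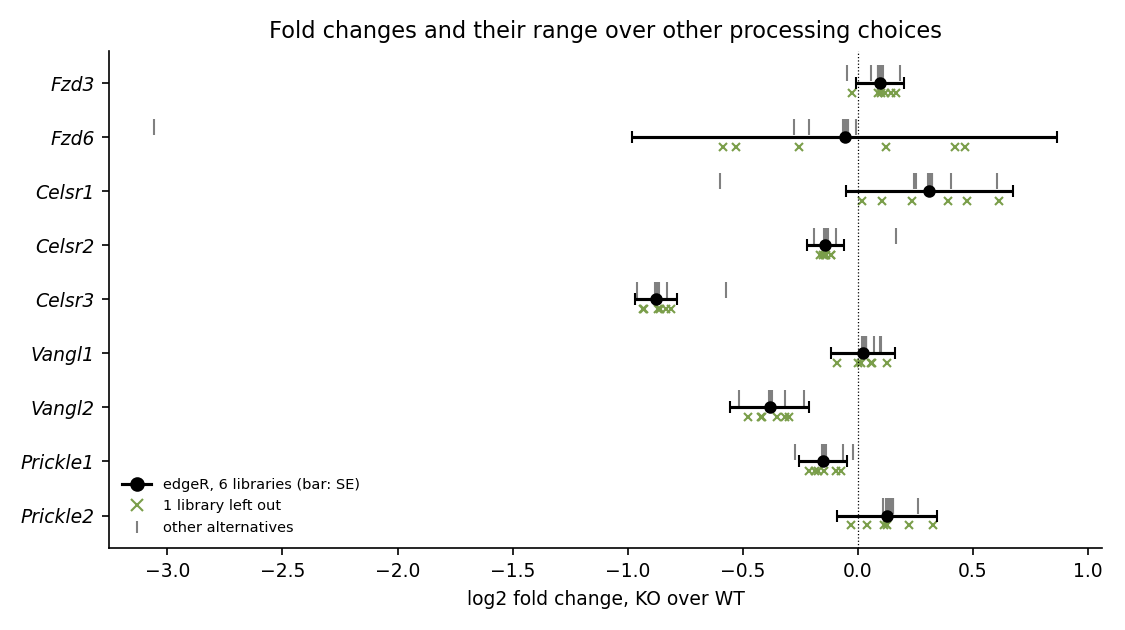
Black points give the log2 fold change of KO over WT from edgeR with 6 libraries, with bars for the standard error. Green crosses give fits with 1 library left out and grey ticks the other alternatives. Celsr3 lies below 0 in all 16 alternatives, from -0.96 to -0.57, while Fzd6 runs from -3.06 to 0.47.

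Fzd6 and Celsr1 varied far more within a genotype than between genotypes, and in both genes replicate 1 of each genotype was the low library. Fzd6, a Frizzled receptor known for hair and skin patterning, was at 2.13, 16.0 and 12.4 CPM in WT and 1.22, 12.3 and 15.8 CPM in KO. The mean over both replicates 1 was 1.68 CPM and over the other 4 libraries 14.1 CPM, a ratio of 8.44. Celsr1, the cadherin of epithelial polarity, was at 5.76, 9.41 and 10.1 CPM in WT and 5.56, 11.5 and 14.3 CPM in KO, a ratio of 2.002 between the same sets of libraries. For the other 7 genes this ratio was between 0.890 and 1.10.

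With such a spread, a genotype difference of Fzd6 was not detectable: its log2 fold change was -0.06 (SE 0.92), and it was -3.06 against KO replicate 1 alone and 0.47 without KO replicate 1. That of Celsr1 was -0.60 and 0.61 in the same fits. Without both replicates 1, a choice made after seeing the values, Fzd6 was at -0.01, Celsr1 at 0.40 and Celsr3 at -0.83. Acinar markers also set the replicates 1 apart, at 68936 and 42638 CPM against 16301 to 36963 in the other 4 libraries. Their part in the Fzd6 and Celsr1 levels was not tested.

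Genes near Fzd6 separated the same libraries. Fzd6 lies on chromosome 15, 38837879 to 38869732, and Celsr1 on the same chromosome at 85729188 to 85864207. Over all tested genes, 5.15% had both replicates 1 below the other 4 libraries. Among the 51 tested genes that start within 10 Mb of Fzd6 (Fzd6 included), 13 lay below and 10 above, so 45.1% were outside the range of the other 4 libraries, in one direction or the other. On the rest of chromosome 15, Celsr1 included, the share was 16.0% of 520 genes, and on other chromosomes 10.1% of 14234. The window was chosen after the values were seen, and neighbouring genes are not independent.

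Several of these neighbours differed by more than 1 on the log2 scale. Cthrc1, a secreted glycoprotein gene that starts 0.07 Mb from Fzd6, was at 0, 2.27 and 2.48 CPM in WT and 0.0381, 1.91 and 1.51 CPM in KO. Spag1 was the reverse, at 19.8, 5.06 and 5.23 CPM in WT and 15.5, 4.74 and 4.68 CPM in KO. Polr2k, a subunit gene of RNA polymerase II, was at 4.83, 9.78 and 11.2 CPM in WT and 5.98, 12.6 and 14.9 CPM in KO, and by the likeness measure it was second nearest to Celsr1. Prickle1, the other member on chromosome 15, did not share the pattern (ratio 0.982). The labels give no strain, batch or litter, and the cause was not tested.

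**Figure D4:**
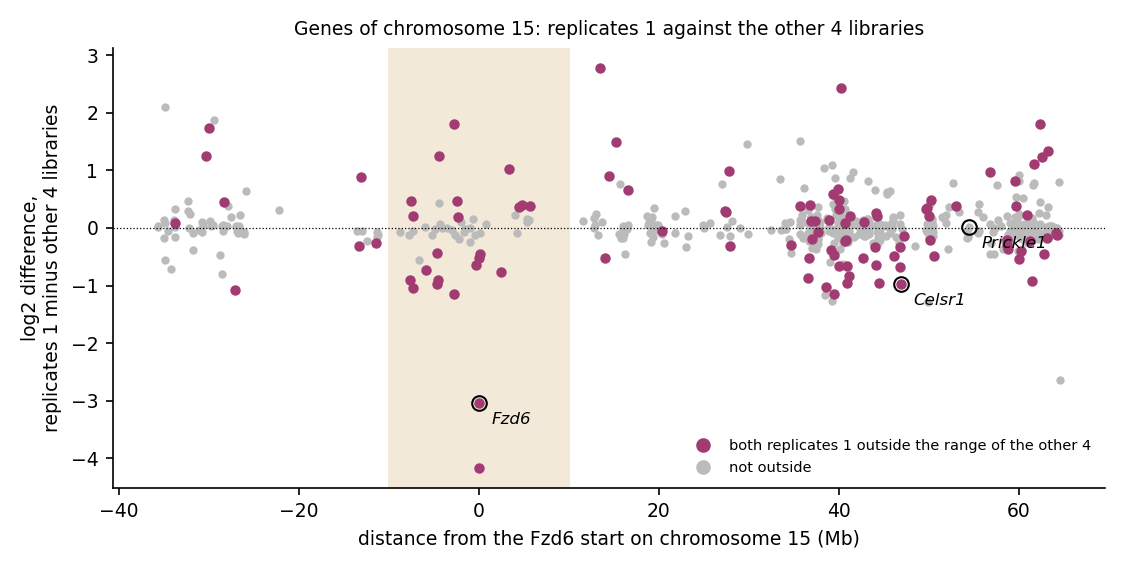
Each point is a tested gene of chromosome 15, placed by the distance of its start from that of Fzd6 (Mb) and by the mean log2(CPM + 0.1) of both replicates 1 minus that of the other 4 libraries. Purple points have both replicates 1 outside the range of the other 4, rings mark Fzd6, Celsr1 and Prickle1, and shading marks 10 Mb on each side. In the shaded window 23 of 51 genes are purple.

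Outside these 9 genes, a list of 56 further genes of the pathway was examined, of which 51 were tested. In edgeR 0 of the 51 were called lower and 0 higher, against 0.17% and 0% of all tested genes. At such shares, 0 calls in a list of this size says little about the pathway. An unadjusted edgeR p below 0.05 was reached by 8 in the lower and 4 in the higher direction (9.38% and 6.99% of all tested genes). DESeq2 called 2 lower (Dvl1 and Fat1) and 0 higher, against 3.33% and 1.37% of the 11839 genes to which it gave an adjusted p. The median log2 fold change was -0.11, 34 of 51 values were negative, against 49.7% of all tested genes, and 11 of 51 had every KO library below every WT library, against 12.1% of all tested genes, while 6 had every KO library above, against 11.3%. Of the 13 genes named below by rule, 12 had the same sign without KO replicate 1 (Gipc1, near 0, did not) and 13 against KO replicate 1 alone. Most of the 13 were named for their large values in the fit of all 6 libraries. Both smaller fits reuse those libraries, so kept signs are no separate evidence.

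In the cytoplasmic core and its regulators 13 of 14 tested genes were negative, with a median of -0.24, and 8 had every KO library below every WT library. Over all tested genes the corresponding shares were 49.7% and 12.1%, and the group was not tested as a set. Dvl1, a Dishevelled adaptor that relays Frizzled signals, was at 29.9, 35.1 and 27.7 CPM in WT and 18.9, 19.4 and 18.6 CPM in KO. Its groups lay far apart, but its log2 fold change, -0.71 (SE 0.10), missed the threshold over all genes (edgeR adjusted p = 0.0839, range over the edgeR and limma-voom alternatives 0.0484 to 0.631). DESeq2 gave an adjusted p of 3.0e-05. The difference was -0.70 without KO replicate 1 and -0.71 against it alone. With the length and GC offsets it was smaller, at -0.51 (SE 0.08), and the part of length and GC content was not tested. The 7 others with separate groups, named after their values were seen, were Dvl3 (-0.30, SE 0.07), Prickle3 (-0.51, SE 0.21), Ankrd6, Scrib, Csnk1d, Csnk1e and Smurf1. Csnk1d, a casein kinase and the most abundant of this group, was at 126 ± 3.58 and 116 ± 4.39 CPM (-0.12, SE 0.06, edgeR adjusted p = 0.374). Gipc1, a trafficking adaptor, had the only positive value in the group (0.01, SE 0.09).

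Among Wnt ligands and co-receptors, 5 of 9 were negative and the median was -0.02. Wnt4, the most abundant, averaged 187 ± 35.1 CPM in the WT and 160 ± 12.6 in the KO libraries (-0.22, SE 0.14, edgeR adjusted p = 0.475). Wnt5a, a ligand classically tied to polarity, was near 1 CPM (-0.28, SE 0.26), and its co-receptor gene Ror1 had the highest value of the group (0.30, SE 0.25). The other Frizzled genes had a median of -0.12 over 7. Fzd4, a receptor known from retinal vessels, averaged 14.4 ± 2.32 CPM in the WT and 18.6 ± 1.64 in the KO libraries, every KO library above WT (0.37, SE 0.14, edgeR adjusted p = 0.271), and Fzd7 at -0.21 (SE 0.11). The sum of the endothelial markers given above was also higher in KO, without overlap between the genotypes. Taken singly, Cdh5, Kdr and Flt1 were separate in the same direction. Pecam1, Esam, Plvap and Tek overlapped, and Tek had a negative log2 fold change (-0.09). The part of these markers in the Fzd4 value was not tested.

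Effectors were evenly divided, with 8 of 16 negative and a median of -0.01. Cfap126 was at 7.78, 8.70 and 7.86 CPM in WT and 9.78, 9.24 and 11.4 CPM in KO. Every KO library lay above WT, with a log2 fold change of 0.32 (SE 0.13) that was not called (edgeR adjusted p = 0.28). Rhoa, the small GTPase of the cytoskeleton, was at 176 ± 1.74 and 203 ± 7.32 CPM (0.21, SE 0.06, edgeR adjusted p = 0.198), and Fuz, a ciliogenesis gene, at -0.43 (SE 0.21).

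The Fat and Dachsous cadherins, which form a polarity system beside the core, had a median of -0.33 over 5. Fat1, a giant cadherin, was at 78.1, 78.001 and 72.3 CPM in WT and 51.9, 64.2 and 61.6 CPM in KO. All KO libraries were below all WT libraries, with a log2 fold change of -0.36 (SE 0.09) that was not called (edgeR adjusted p = 0.167). It was -0.28 without KO replicate 1 and -0.55 against that library alone. Its exons span 14778 bp. Dchs1, with 11070 bp, had the only positive value of the group, at 3.75 ± 0.459 and 4.90 ± 0.689 CPM (0.39, SE 0.18, edgeR adjusted p = 0.356). Fat3 (19914 bp, mean 0.906 CPM) was at -1.02 (SE 0.46) and Fat4 (17165 bp) at -0.33 (SE 0.19). Fjx1 (2425 bp, mean 0.934 CPM) was at -0.10 (SE 0.43). The part of exon length in these values was not tested.

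**Figure D5:**
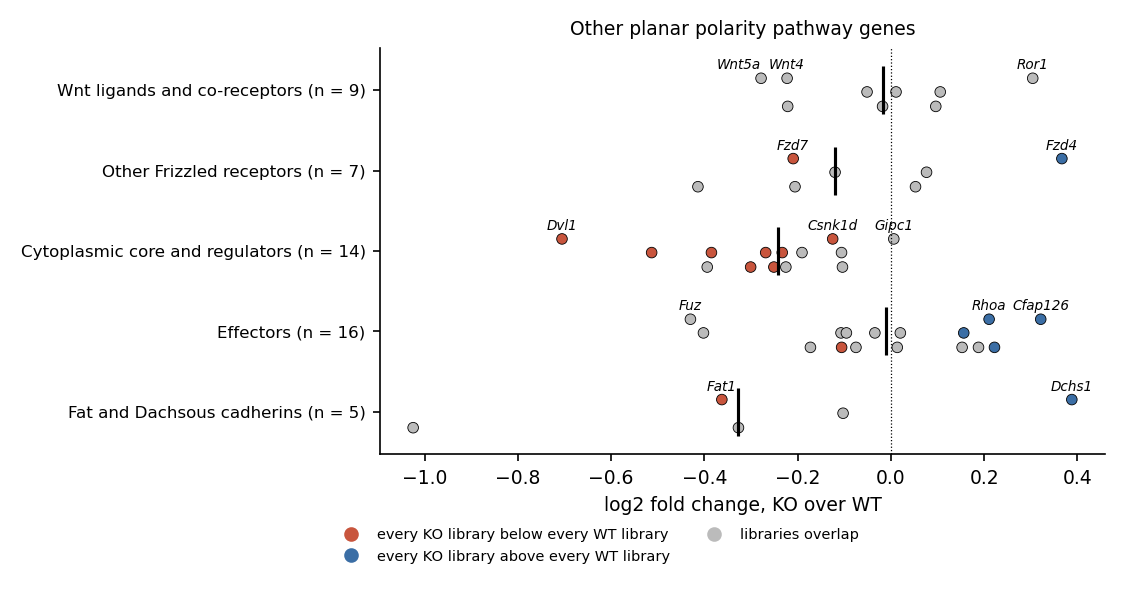
Log2 fold change of KO over WT for the 51 tested pathway genes outside the 9, by group. Red points have every KO library below every WT library, blue points every KO library above, grey points overlap, and black bars are medians. Dvl1 is labelled at -0.71 and Dchs1 at 0.39, and the cytoplasmic group has 8 red and 0 blue points.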

How the data were processed

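RNA-seq of 6 islet libraries was analysed. Per the submitters' processing notes, CASAVA 1.8.2, HISAT2 2.1.0, HTSeq and DESeq2 were used with the mm9 build. The sources used here do not state the annotation, counting options or use of strand, so reads of overlapping antisense genes cannot be told apart. The authors deposited raw read counts per gene, not normalized, in 1 column per library. A set of 24 gene names had become dates. None of them is named here, but their rows stayed in the counts.

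Here, genes were kept by filterByExpr (15915), scaled by TMM and tested with edgeR 4.0.16 (quasi-likelihood, R 4.3.3), with Benjamini-Hochberg adjustment over all genes and calls below 0.05. The script was tested on simulated data. Alternatives used DESeq2 1.42.0, limma 3.58.1 (voom), other filters and scalings, and offsets on length and GC content from GENCODE vM1 on mm9, which matched 14805 tested genes (93%). Likeness and the comparison of replicates 1 used log2(CPM + 0.1).

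The 9 genes, the pathway list and the markers were chosen with earlier results of these data known. By a fixed rule the text names the 9 genes, Paupar, and in each pathway group the called genes, the largest increase and decrease at 1 CPM or more and the most abundant gene, and the 5 genes most like Celsr3. Other names were chosen after their values were seen. Libraries held 25733194 to 27285009 counts. The precision of each value is given by the spread between libraries, not by counting error.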

Additional observations from a re-analysis of the deposited data

How the results depend on the processing

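Over all genes edgeR called 27 genes, all lower in KO (0 higher). An unadjusted p below 0.05 was reached by 1493 genes in the lower and 1113 in the higher direction. The number called was 25 to 37 with DESeq2 size factors, with library sizes without the 10 most abundant genes and with other low-count filters. It was 556 with DESeq2 (394 lower, 162 higher) and 132 at an adjusted p below 0.1. It was 0 with limma-voom and with the length and GC offsets, 1 with KO replicate 1 alone against WT and 5 without both replicates 1. Leaving out 1 library gave 0 to 89, with 89 without WT replicate 3. The causes were not tested. Of the 9 genes, 1 was called, always Celsr3, with DESeq2, the other scalings and filters and at 0.1, and 0 with limma-voom, the offsets, KO replicate 1 alone or without both replicates 1, and 0 to 1 when 1 library was left out. Of the other pathway genes 0 were called, 2 with DESeq2 (Dvl1 and Fat1), 1 at 0.1, and 0 to 1 when 1 library was left out (Dvl1 without WT replicate 3). Celsr3 was below 0 in 16 of 16 alternatives and called in 6. Vangl2 and Prickle1 were also below 0 in all 16, and called in 0. In the order of levels 0 of 8 neighbouring pairs passed under any alternative, and with fewer than 6 libraries no pair can. Without WT replicate 1 or KO replicate 1, Fzd6 stood above Vangl1, and over WT alone Vangl2 stood above Prickle2.

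With the replicate number as a block, 0 genes were called over all genes, 0 of the 9 and 0 of the other pathway genes. The numbers are not shown to pair the libraries: deviations from the group means correlated at 0.188, 0.073 and 0.0245 for same-numbered libraries across genes, and replicate 3 did not correlate best with its own number.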

Other observations

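By the measure of likeness used for Celsr3, the genes nearest to Fzd6 over the 6 libraries were the noncoding RNA gene Snhg18 (0.456), Apof, an apolipoprotein gene, and Cthrc1 (0.705), and those nearest to Celsr1 were Lrrn2 (0.124) and Polr2k (0.134). Cthrc1 and Polr2k lie on chromosome 15, as do Fzd6 and Celsr1. Apof lies on chromosome 10 and Lrrn2 on chromosome 1, and the annotation used gave no position for Snhg18. These lists were made after the low values in replicates 1 had been seen.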
